A study of Mus musculus with 5 samples.

Results

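The genes described here are the translation initiation factors and the aminoacyl-tRNA synthetases of mouse heart muscle cells that did or did not receive the reprogramming factors Oct4, Sox2, Klf4 and Myc (OSKM). They were taken by name from the deposited expression table: every protein-coding row whose symbol starts with Eif, the cytosolic synthetases, and their mitochondrial forms. This gave 92 genes of the 12446 listed, or of the 11586 listed as protein-coding. Of the 92, 51 carry an initiation factor name, 20 are cytosolic and 17 are mitochondrial synthetases, and the other 4, listed under the older symbols Eif2c1 to Eif2c4, are Argonaute genes, whose products carry small RNAs in gene silencing and take no part in loading the ribosome.

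Heart muscle cells (cardiomyocytes, CMs) came from the hearts of male C57BL/6 mice that were 12 to 14 weeks old and had been injected into the thoracic cavity at 8 weeks. The OSKM-CMs group (3 libraries, numbered 1, 2 and 3) came from mice given a mixture of AAV9 vectors for Oct4-His6, Sox2-Flag, Klf4-HA and Myc-V5. The Control-CMs group (2 libraries, numbered 3 and 5) came from mice given 1 AAV vector for the fluorescent protein BFP, at a titer equal to that of the 4 factor vectors together. All vectors used the cTnT (cardiac troponin T) promoter, which is active in heart muscle cells, so all groups carry AAV and a foreign protein. Total RNA of the isolated cells was sequenced in bulk. Cells that took up a vector were not separated from cells that did not, and the labels do not say how many animals stand behind a library, so the p-values measure the spread between these libraries only.

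To start a protein, the small ribosomal subunit is loaded by eIF2 with the initiator tRNA, held by eIF1, eIF1A and eIF3, and brought to the capped mRNA by the eIF4 proteins, of which eIF4E binds the cap, eIF4G is the scaffold and eIF4A unwinds the RNA. Synthetases attach each amino acid to its tRNA, and a mostly separate set encoded in the nucleus does so inside mitochondria. In the heart, where contractile proteins are replaced steadily and muscle growth depends on protein synthesis, initiation is controlled mainly through eIF2 phosphorylation and through eIF4E and its binding proteins.

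The libraries held 2691797 to 2780753 reads in OSKM-CMs and 3519628 and 3861806 in Control-CMs. Pou5f1 (Oct4) and Sox2 had no read in either control library and 254 to 391 reads in the OSKM libraries, and Klf4 and Myc were higher there as well (log2 fold changes of 2.49 and 4.23). Heart muscle markers were present in every library: their 13 genes summed to 23645 to 25869 RPKM after scaling in OSKM-CMs against 35888 and 38908 in Control-CMs, with 2 markers higher and 9 lower. Markers of other cells were low but not at 0. Those of endothelium (12 of 12 listed, 3 lower) summed to 116 to 254 against 343 and 399, those of mural cells (9 of 9 listed, 3 higher and 1 lower) to 263 to 401 against 225 and 231, those of fibroblasts (10 of 12 listed, 4 higher) to 124 to 261 against 71.9 and 155, and those of leukocytes (7 of 13 listed, none passing) to 8.20 to 40.6 against 13.1 and 53.8. The 4 fibroblast markers called higher were Postn (means of 42.8 against 1.30), Col1a1 (6.27 against 0.892), Col1a2 (10.1 against 1.49) and Col3a1 (38.6 against 8.51). The other 5 tested did not pass. Of tested markers, 44.4% of fibroblast and 33.3% of mural ones were higher, against 15.9% of all genes. Lower were 69.2% of heart muscle and 25.0% of endothelial ones, against 14.3%. The part of other cells in the results below was not tested. In bulk RNA, fewer cells of a type and less RNA per cell cannot be told apart.

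Among the translation genes, more were higher in OSKM-CMs than lower. Levels are given as scaled RPKM, the deposited reads per kilobase normalized to library totals, adjusted between libraries by trimmed-mean (TMM) factors. A gene was called higher or lower where limma, fitted to log2(scaled RPKM + 1) over all genes with a mean of at least 1 RPKM, gave a Benjamini-Hochberg adjusted p under 0.05. Of the 91 members tested, 29 were higher (31.9%, against 15.9% of the 10915 genes tested), 6 were lower (6.59%, against 14.3%) and 56 did not pass. Their median log2 fold change was 0.26, against 0.02 over all genes. All 3 OSKM libraries lay above both controls for 47 members and below both for 12, where 30.0% and 27.8% of all genes did so. In the authors' deposited table, at an FDR under 0.05, 30 of the 91 were higher and 8 lower, against 16.7% and 16.3% of all genes. Summed over the 92 members, scaled RPKM was 2729, 2656 and 2897 in OSKM-CMs and 2022 and 2099 in Control-CMs, a ratio of 1.34.

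These counts depend on how the libraries are put on 1 scale. Reads of the mitochondrial genome made up 9.76 to 11.1% of OSKM-CMs libraries and 21.2 and 24.7% of controls. With RPKM left on library totals, 57 members were higher and 0 lower, but 36.5% of all genes were then higher and the median of all genes moved to 0.36, so that the members' median of 0.63 stood 0.27 above it, against 0.24 with TMM factors. The share of calls that were higher was 82.9% with TMM factors, while all calls were higher on library totals. Of reads outside the mitochondrial genome, members took 1.11 to 1.20% in OSKM-CMs and 0.815 and 0.792% in controls. All 29 genes called higher with TMM factors were also called higher on library totals, and none of the 6 called lower passed there.

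**Figure D1:**
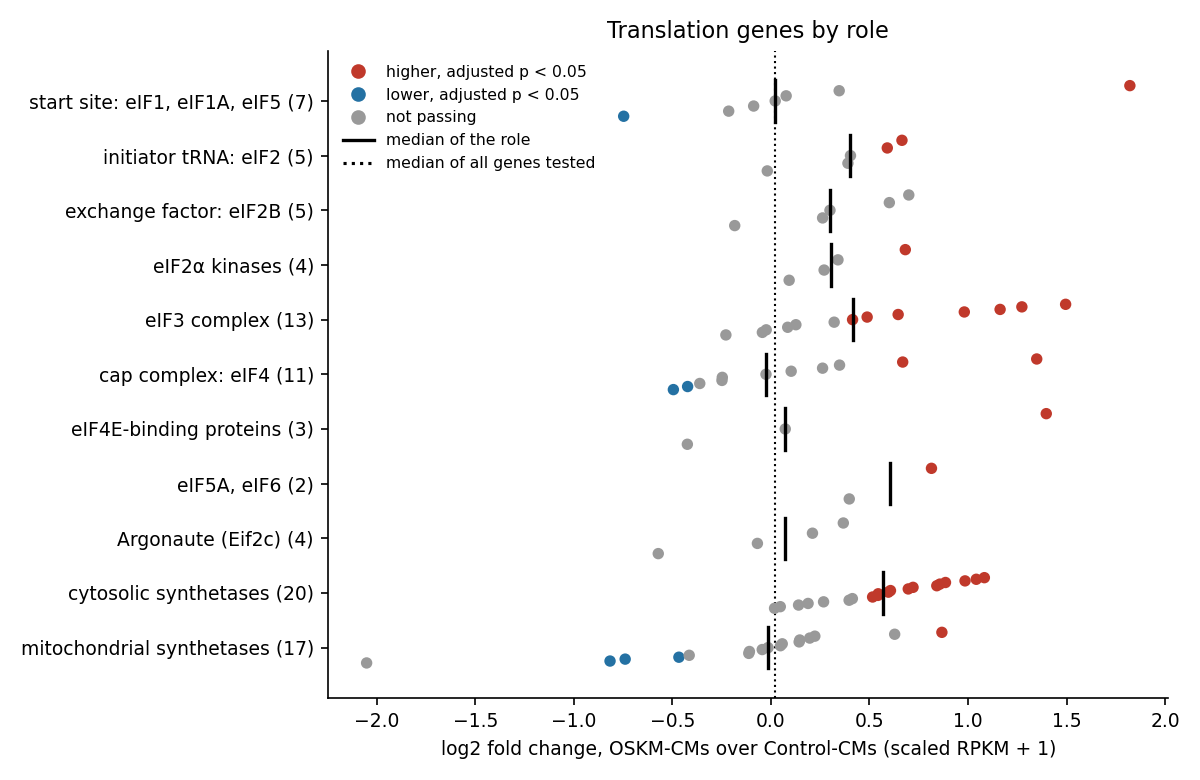
Log2 fold change (OSKM-CMs over Control-CMs, on log2 of scaled RPKM + 1) of the 91 tested genes, 1 point per gene, in rows by role with the number tested; red and blue points passed an adjusted p of 0.05, vertical bars are role medians and the dotted line is the median of all genes tested (0.02). The cytosolic synthetases all lie right of 0 with a median of 0.57, while the mitochondrial synthetases centre on -0.01.

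Of the 7 genes for start-site selection tested, 1 was higher, 1 was lower and 5 did not pass. These shares, 14.3% and 14.3%, were near the 15.9% and 14.3% of all genes tested. Eif1a and Eif1ax both encode eIF1A, which helps the ribosome scan to the start codon. Eif1a was at 18.2, 17.4 and 22.7 scaled RPKM in OSKM-CMs and at 3.80 and 5.87 in controls, 4.02-fold higher on the means (19.4 ± 2.86, SD, n = 3, against 4.83 ± 1.46, n = 2). Every OSKM library exceeded every control, and its log2 fold change of 1.82 ± 0.19 (SE, adjusted p = 0.000694) was the highest of the 91 members. Eif1ax stood at 15.8, 20.5 and 18.4 in OSKM-CMs and 18.7 and 19.99 in controls, and the groups overlapped. The ratio of Eif1a to Eif1ax within a library, which no scaling changes, was 1.15, 0.849 and 1.23 in OSKM-CMs and 0.203 and 0.294 in controls.

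Eif1, whose protein guards against wrong start codons, was lower: 25.9, 22.8 and 21.0 scaled RPKM against 36.8 and 42.5 (log2 fold change -0.75 ± 0.14, adjusted p = 0.00607). On library totals its value was -0.34 with an adjusted p of 0.0690. Its paralogue Eif1b did not pass (21.0, 20.7 and 23.6 against 30.6 and 21.0). Eif5, the GTPase-activating partner of eIF2, Eif5b, which joins the large subunit, and Eif1ad did not pass either, at log2 fold changes of 0.35, 0.02 and 0.08.

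Among the subunits of eIF2, 2 of the 3 listed were higher. With Eif2a and Eif2d counted in, 2 of 5 genes were higher (40.0%) and 0 lower. Of all genes tested, 15.9% were higher and 14.3% lower. Eif2s3x (the gamma subunit, which holds GTP and the initiator tRNA) stood at 52.5, 51.4 and 59.4 scaled RPKM against 35.2 and 32.6 (log2 fold change 0.67 ± 0.12, adjusted p = 0.00573). For Eif2s1, the alpha subunit that stress kinases phosphorylate, the libraries read 23.3, 22.2 and 28.5 against 16.7 and 15.3 (0.59 ± 0.14, adjusted p = 0.0192). The beta subunit gene Eif2s2 was also above both controls in all 3 OSKM libraries (15.4, 14.1 and 18.2 against 11.5 and 12.1) but did not pass, at 0.39 with an adjusted p of 0.0803. Eif2a, a separate protein that can also deliver the initiator tRNA, had an adjusted p of 0.0510, and Eif2d one of 0.950. Eif2s1 no longer passed without OSKM-CMs 3 (adjusted p = 0.0542), Control-CMs 3 (0.0540) or Control-CMs 5 (0.0953), at log2 fold changes of 0.48, 0.65 and 0.53.

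None of the 5 genes of eIF2B, which recharges eIF2 with GTP, passed in the fit reported. Of all genes tested, 15.9% were higher and 14.3% lower. Eif2b2 came nearest: 8.30, 9.72 and 13.2 scaled RPKM against 4.79 and 7.25 (log2 fold change 0.70 ± 0.23, adjusted p = 0.0537), and it passed without Control-CMs 5 (0.96, adjusted p = 0.0423). Eif2b3 was at 0.60, and passed without OSKM-CMs 2 (0.73, adjusted p = 0.0394). With limma voom both Eif2b2 and Eif2b3 were called higher (adjusted p of 0.0494 and 0.0313). Eif2b2 also passed with a mean of at least 5 RPKM (adjusted p = 0.0453). In the authors' deposited table their FDRs are 0.0563 and 0.0211. Eif2b1, Eif2b5 and Eif2b4 were at 0.30, 0.26 and -0.18. Of the 4 kinases that phosphorylate eIF2 alpha, 1 was higher (25.0%, against 15.9% of all genes) and 0 lower (against 14.3%). Eif2ak2 (PKR, which senses double-stranded RNA) was higher, at 6.88, 5.72 and 9.60 scaled RPKM against 3.85 and 4.46 (0.68 ± 0.21, adjusted p = 0.0444). That call did not hold without OSKM-CMs 1 (adjusted p = 0.0976), OSKM-CMs 3 (0.103), Control-CMs 3 (0.161) or Control-CMs 5 (0.0917), at log2 fold changes of 0.71, 0.50, 0.60 and 0.77. Eif2ak3 (PERK, the endoplasmic reticulum stress kinase) was at 0.34, Eif2ak4 (GCN2, which senses uncharged tRNA) at 0.27 and Eif2ak1 (HRI, which senses heme) at 0.09, none passing.

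The eIF3 complex, the large scaffold that binds the small ribosomal subunit, had 7 of its 13 genes higher and 0 lower. That was 53.8% and 0%, against 15.9% and 14.3% of all genes tested. Eif3a, the largest core subunit, stood at 137, 89.7 and 119.8 scaled RPKM in OSKM-CMs and 35.1 and 45.02 in controls (2.89-fold, log2 fold change 1.495 ± 0.20, adjusted p = 0.00174). Eif3e was at 197, 198 and 217 against 78.1 and 90.05 (2.43-fold, 1.27 ± 0.12, adjusted p = 0.000389), which made it the most abundant member per length in OSKM-CMs. Eif3l was at 100.2, 96.8 and 108 against 44.6 and 44.9 (2.27-fold, 1.16 ± 0.11, adjusted p = 0.000420). Within a group the libraries lay close together for Eif3e and Eif3l, and for all 3 genes the groups were far apart.

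Eif3b followed at 0.98, Eif3d at 0.65, Eif3i at 0.49 and Eif3g at 0.41. The other 6 did not pass: Eif3k was at 0.32 (adjusted p = 0.0824) with every OSKM library above both controls, and Eif3c, Eif3h, Eif3m, Eif3j and Eif3f ranged from 0.13 to -0.23 with overlapping groups. On library totals 11 of the 13 were higher, against 36.5% of all genes. Among them were Eif3k (0.74), Eif3c (0.54), Eif3h (0.50) and Eif3m, which turned from -0.02 to 0.39. Summed over its 13 genes, eIF3 stood at 921, 863 and 952 scaled RPKM in OSKM-CMs and 552 and 609.6 in controls, a ratio of 1.57. The calls of Eif3d, Eif3i and Eif3g were lost without Control-CMs 3 (adjusted p of 0.0817, 0.0546 and 0.164) and without Control-CMs 5 (0.0671, 0.0774 and 0.0823). Without OSKM-CMs 3, Eif3i and Eif3g lost theirs (0.0549 and 0.0928), as did Eif3g without OSKM-CMs 1 (0.108). With 1 library left out the log2 fold changes stayed within 0.52 to 0.74 for Eif3d, 0.45 to 0.52 for Eif3i and 0.35 to 0.48 for Eif3g.

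In the cap-binding complex 2 of 11 genes were higher, a helicase and its cofactor. Another 2 were lower, the cap-binding protein and a scaffold-like gene. These shares, 18.2% and 18.2%, were near the 15.9% and 14.3% of all genes tested. Eif4a1, the main eIF4A helicase of dividing cells, was at 91.1, 76.8 and 109 scaled RPKM in OSKM-CMs and 37.96 and 32.8 in controls (2.61-fold, log2 fold change 1.35 ± 0.16, adjusted p = 0.00117). Its muscle- and brain-rich paralogue Eif4a2 was at 54.7, 75.8 and 56.8 against 83.1 and 76.2 and did not pass (-0.36 ± 0.16, adjusted p = 0.129), except without OSKM-CMs 2, the highest OSKM library for it (-0.51, adjusted p = 0.0178). Eif4a1 was at less than the level of Eif4a2 in both controls (ratios of 0.457 and 0.430). The ratio was 1.67 in OSKM-CMs 1 and 1.92 in OSKM-CMs 3, and in OSKM-CMs 2 the genes were about equal (1.01). Eif4a3, the helicase of the exon junction complex, did not pass (0.26).

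Eif4b, the cofactor of eIF4A, was higher, at 100.7, 89.3 and 93.9 scaled RPKM against 56.5 and 61.7 (0.67 ± 0.11, adjusted p = 0.00441). Eif4h, which has a related function, lay between 51.7 and 61.7 in all 5 libraries. The cap-binding protein itself was lower: Eif4e was at 33.7, 36.4 and 35.9 scaled RPKM against 52.2 and 48.1 (-0.49 ± 0.11, adjusted p = 0.0148). Its relatives Eif4e2 (0.35) and Eif4e3 (-0.25) did not pass, and both were less abundant than Eif4e in every library.

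The scaffold-like gene Eif4g2, whose protein lacks the part that binds eIF4E, was lower (70.4, 72.8 and 72.1 against 97.7 and 95.4, -0.42 ± 0.10, adjusted p = 0.0191). Eif4g1, the main scaffold, was at 53.0, 61.7 and 55.6 against 69.4 and 65.6 and did not pass (-0.25, adjusted p = 0.150), nor did Eif4g3 (0.10). On library totals Eif4e and Eif4g2 were at -0.08 and -0.01 and neither passed. Without OSKM-CMs 1 and without Control-CMs 3 both lost the call as well (Eif4e adjusted p = 0.0546 and 0.0867, Eif4g2 adjusted p = 0.0642 and 0.0876), and Eif4g2 also without OSKM-CMs 3 (0.0594) and Control-CMs 5 (0.0725). Their log2 fold changes with 1 library left out were -0.55 to -0.44 and -0.44 to -0.41.

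Eif4ebp1 encodes the binding protein that holds eIF4E away from eIF4G until mTORC1 phosphorylates it. It was at 127, 119 and 138 scaled RPKM in OSKM-CMs and 45.4 and 50.4 in controls (2.67-fold, log2 fold change 1.40 ± 0.12, adjusted p = 0.000301). No OSKM library came near a control. Its ratio to Eif4e in the same library was 0.868 and 1.05 in controls and 3.76, 3.26 and 3.86 in OSKM-CMs. Eif4ebp2, the other binding protein listed, was scarce (2.73, 2.52 and 2.38 against 4.51 and 3.09) and did not pass, and neither did the transporter of eIF4E, Eif4enif1 (0.07).

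Eif5a, whose hypusine-bearing protein keeps the ribosome moving through difficult sequences, was higher at 124, 129 and 127 scaled RPKM against 70.9 and 72.1 (0.81 ± 0.10, adjusted p = 0.00134). Its paralogue Eif5a2 fell below the minimum level for testing, with 11, 8 and 20 reads in the OSKM libraries and 2 and 3 in those of controls. In the authors' deposited table Eif5a2 has a log2 fold change of 2.14 with an FDR of 0.0112. Eif6, which keeps ribosomal subunits apart, was at 0.40 and did not pass (adjusted p = 0.0648). The table also lists pseudogenes made from 3 of these genes, Eif4a-ps4, Eif3s6-ps1 and Eif5al3-ps, at 44 to 74, 4 to 7 and 6 to 14 reads in OSKM libraries and 13, 0 to 3 and 2 to 5 in controls. Eif4a-ps4 was itself called higher (1.81, adjusted p = 0.00114). How reads that match both a gene and such a copy were counted is not given in the sources used here, so Eif4a1, Eif3e and Eif5a are uncertain to that extent.

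**Figure D2:**
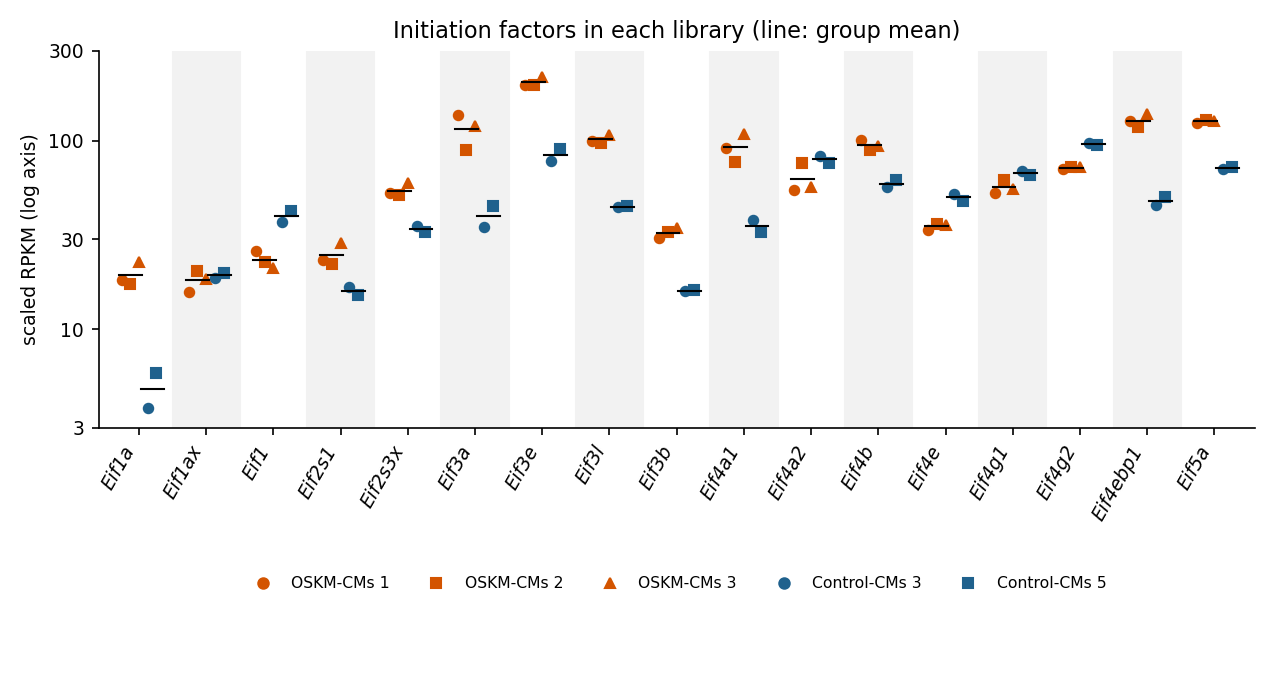
Scaled RPKM (log axis) of 17 initiation factor genes in each of the 5 libraries, OSKM-CMs in orange and Control-CMs in blue, with a black line at each group mean. Eif1a, Eif3a, Eif3e, Eif3l, Eif4a1 and Eif4ebp1 separate by 2.27- to 4.02-fold, while Eif1, Eif4e and Eif4g2 lie lower in the OSKM libraries.

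None of the 4 Argonaute genes passed in the fit reported, where 15.9% of all genes tested were higher and 14.3% lower. Eif2c2 (Ago2, the slicing form) was at 6.29, 6.36 and 5.50 scaled RPKM against 4.57 and 5.63. Eif2c4 was the nearest to the threshold, at 2.32, 2.17 and 1.64 against 3.24 and 3.78 (-0.57 ± 0.18, adjusted p = 0.0517). It was called lower with a pseudocount of 5, with median-of-ratios size factors, with limma without trend or robust settings and with limma voom (adjusted p of 0.0458, 0.0489, 0.0389 and 0.0124), and its FDR in the authors' deposited table is 0.0101. Eif2c1 and Eif2c3 were at 0.37 and -0.07.

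Of the 20 cytosolic synthetases, 13 were higher and 0 lower, against 15.9% and 14.3% of all genes tested, and 7 did not pass. All 20 had a positive log2 fold change, with a median of 0.57. Of the 10915 genes tested, 5650 had a positive value. The lowest of the 20, Farsb (0.02) and Aars (0.05), lay close to the median of all genes (0.02). Hars, for histidine, was at 30.1, 25.5 and 37.8 scaled RPKM in OSKM-CMs and 13.8 and 14.1 in controls (2.23-fold, 1.08 ± 0.17, adjusted p = 0.00328). Iars, for isoleucine, was at 22.5, 26.5 and 24.5 against 11.4 and 11.3 (2.16-fold, 1.04 ± 0.13, adjusted p = 0.00116). Rars, for arginine, was at 21.7, 23.3 and 25.2 against 11.7 and 10.9 (2.07-fold, 0.99 ± 0.13, adjusted p = 0.00145). For these 3 genes the control libraries lay close together, and the lowest OSKM library was well above them.

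The other 10 that passed were Yars (tyrosine, 0.89), Sars (serine, 0.86), Eprs (glutamate and proline on 1 protein, 0.84), Vars (valine, 0.72), Gars (glycine, 0.70), Nars (asparagine, 0.61), Tars (threonine, 0.60), Cars (cysteine, 0.54), Farsa (a phenylalanine subunit, 0.54) and Kars (lysine, 0.52). The 7 that did not pass were Wars (0.41), Dars (0.40), Lars (0.27), Mars (0.19), Qars (0.14), Aars (0.05) and Farsb (0.02). Wars was high in 1 library only, at 20.3 scaled RPKM in OSKM-CMs 3 against 11.4 and 11.8 in the other 2. The phenylalanine enzyme is built from a Farsa and a Farsb chain, and their ratio within a library was 0.211, 0.200 and 0.179 in OSKM-CMs and 0.130 and 0.122 in controls. Summed over the 20 genes, scaled RPKM was 556, 519.8 and 612 in OSKM-CMs against 372 and 373 in controls, a ratio of 1.51.

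Some of these calls needed all 5 libraries. Cars and Farsa passed with 5 (adjusted p = 0.0373 and 0.0278) but in no fit that left 1 out, with adjusted p of 0.0546 to 0.151 for Cars and 0.05002 to 0.118 for Farsa. Their log2 fold changes in those fits ranged from 0.44 to 0.66 and from 0.46 to 0.63, around the 0.54 with all libraries. Nars was lost without Control-CMs 3 (0.0663) and without Control-CMs 5 (0.0641), Tars without Control-CMs 5 (0.0625), and Kars without OSKM-CMs 3 (0.0610) or Control-CMs 5 (0.0994), at log2 fold changes of 0.42 to 0.61. The other 8, Hars, Iars, Rars, Yars, Sars, Eprs, Vars and Gars, passed in all 13 alternatives run.

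Mitochondrial synthetases lay on both sides of 0. Of 17, 1 was higher, 3 were lower and 13 did not pass, with a median log2 fold change of -0.01. The shares were 5.88% higher and 17.6% lower, against 15.9% and 14.3% of all genes tested. On library totals 6 were higher and 0 lower, with a median of 0.32. Of all genes 36.5% were then higher and 5.96% lower, with a median of 0.36. Tars2, for threonine, was higher at 19.8, 23.5 and 20.4 scaled RPKM against 10.6 and 11.7 (0.87 ± 0.13, adjusted p = 0.00295). Cars2 (8.85, 13.9 and 9.26 against 21.7 and 16.9, -0.82 ± 0.21, adjusted p = 0.0239), Fars2 (21.6, 20.9 and 20.3 against 32.5 and 39.1, -0.74 ± 0.13, adjusted p = 0.00462) and Hars2 (4.42, 4.88 and 4.59 against 6.86 and 6.69, -0.47 ± 0.14, adjusted p = 0.0410) were lower, and for each the groups did not overlap. On library totals none of the 3 passed (-0.42, -0.33 and -0.11), and the groups overlapped for Cars2 and Hars2. Iars2 turned from -0.01 to 0.38 there. Cars2 was also lost without OSKM-CMs 1 (adjusted p = 0.0799), OSKM-CMs 3 (0.0828) or Control-CMs 3 (0.125), and Hars2 in every fit with 1 library left out (0.0593 to 0.125); with 1 left out their log2 fold changes were -1.01 to -0.65 and -0.50 to -0.44.

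Lars2, for leucine, had the most negative value of all members and did not pass (-2.05 ± 0.76, adjusted p = 0.108). It had 78, 55 and 60 reads in OSKM-CMs, 121 in Control-CMs 3 and 731 in Control-CMs 5, or 6.57, 4.57 and 5.07 scaled RPKM against 10.1 and 61.5. The value is thus set by Control-CMs 5: without it the log2 fold change was -0.81 (adjusted p = 0.0475), and without Control-CMs 3 it was -3.30 (adjusted p = 0.000522). In the authors' deposited table Lars2 has a log2 fold change of -2.72 with an FDR of 3.7e-06. Control-CMs 5 was also the library with the highest share of mitochondrial reads (24.7%), whose part in the Lars2 value was not tested. Without Lars2 the other 16 mitochondrial synthetases summed to 130 to 152 scaled RPKM in OSKM-CMs against 148 and 157 in controls.

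**Figure D3:**
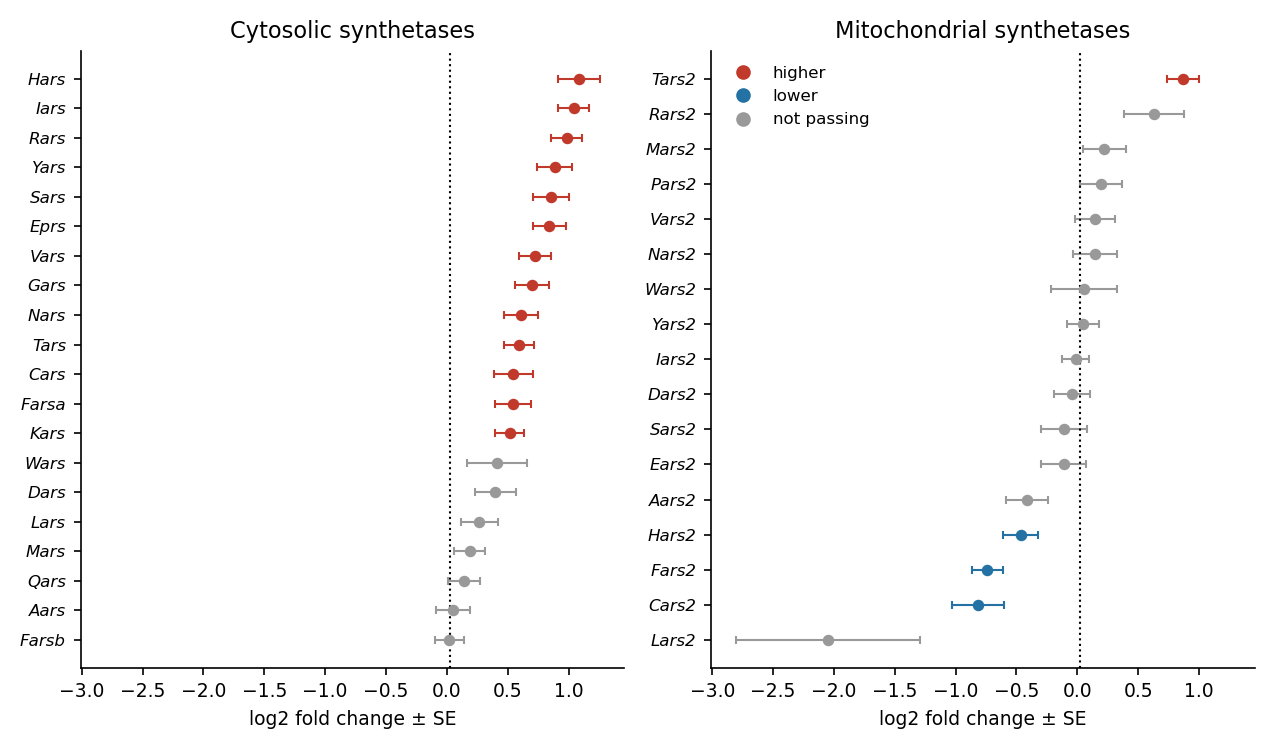
Log2 fold change ± SE of each cytosolic (left, 20 genes) and mitochondrial (right, 17 genes) synthetase, red where called higher, blue where called lower and grey where not passing; the dotted line is the median of all genes tested. The cytosolic genes lie between 0.02 and 1.08, and the mitochondrial genes between -2.05 and 0.87.

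Cytosolic and mitochondrial partners can be compared inside each library, where no scaling enters. No separate mitochondrial form of Gars, Kars or Qars was listed. Of 18 such pairs, all 3 OSKM libraries had a higher ratio of cytosolic to mitochondrial mRNA than both controls in 12, a lower one in 1 (Tars to Tars2), and overlapping ratios in 5 (Dars, Mars, Nars, Rars and Wars with their partners). The 30.0% of single genes above both controls is no background for ratios, and none was computed. The median pair had a ratio 1.65 times that of controls, and the range was 0.813 to 4.26, the upper end being Lars to Lars2, whose value was 2.56 without Control-CMs 5 and 12.7 without Control-CMs 3. The pairs share genes in 4 cases, since Eprs and Fars2 each enter 2 of them; of the 14 pairs whose genes enter once, 8 were above. Hars to Hars2 went from 2.02 and 2.11 to 6.82, 5.22 and 8.25. Yars to Yars2 went from 0.502 and 0.551 to 1.011, 1.005 and 1.108. No p is given for single ratios, since the 10 ways to divide 5 libraries into 3 and 2 allow no exact permutation p below 0.1 (one-sided).

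**Figure D4:**
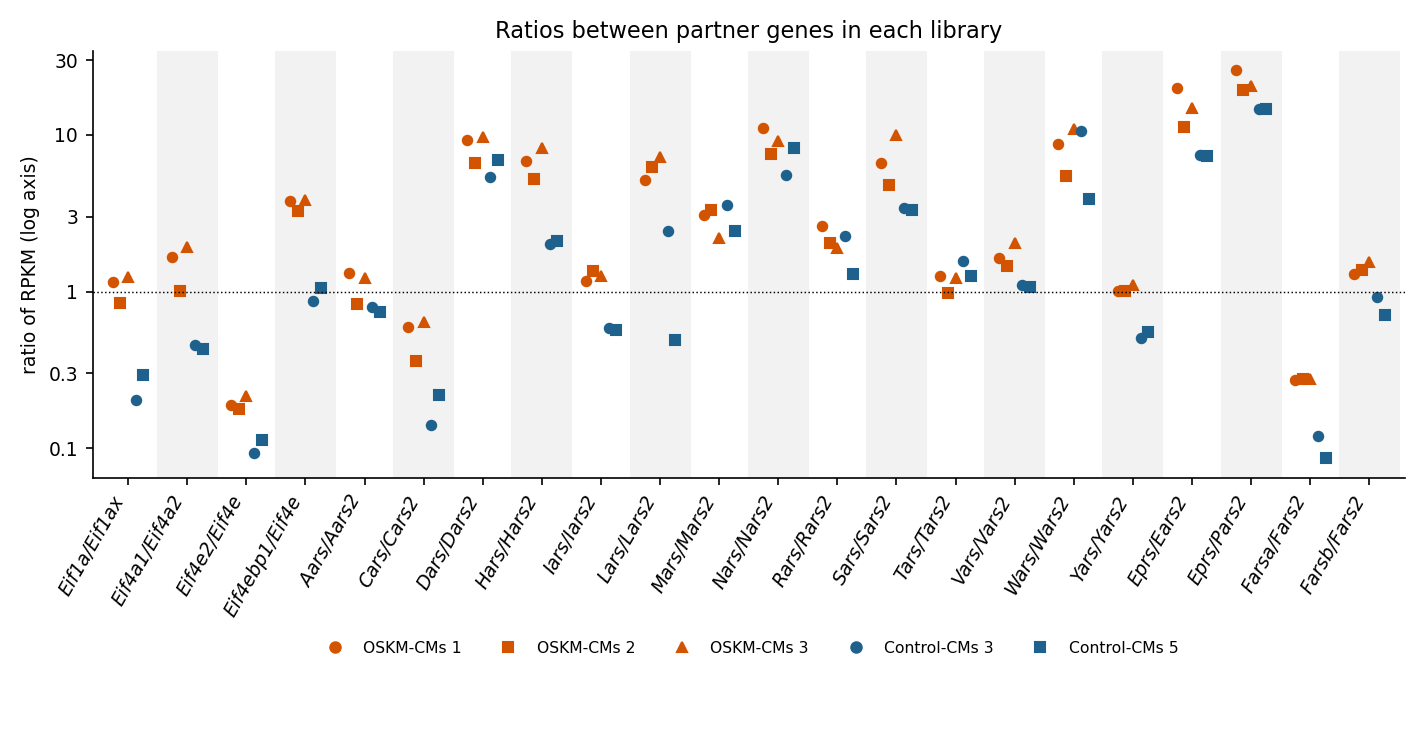
Ratio of the RPKM of named partner genes within each library (log axis), 4 pairs of initiation genes followed by the 18 pairs of cytosolic and mitochondrial synthetases; orange points are OSKM-CMs and blue points Control-CMs. The ratio of Eif4a1 to Eif4a2 lies below 1 in controls (0.430 and 0.457) and at 1.01 to 1.92 in OSKM-CMs.

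Promoters of the members were searched for short motifs. The table of RefSeq promoters (GRCm38.p6, 250 bases before to 50 after a start) held 87 promoters for 72 of the 92 members, matched by Ensembl identifier, symbol or synonym. The motifs were CACGTG, the E-box that MYC binds, which reads the same on both strands, and TGATGNAA on either strand, the core of the amino acid response element that ATF4 binds with a C/EBP protein. No match of 1 motif overlapped a match of the other in these promoters. TGATGNAA was found in 5 of 13 cytosolic synthetase promoters (38.5%), 0 of 15 mitochondrial synthetase promoters and 1 of 55 initiation factor promoters (1.82%), against 3.97% of all 32851 promoters and 2.10% of those of tested genes. CACGTG was found in 4 of the 13 (30.8%), 1 of the 15 (6.67%) and 12 of the 55 (21.8%), against 7.15% of all and 10.4% of those of tested genes. By call, CACGTG was in 7 of 25 promoters of genes that were higher, 3 of them alternative starts of Eif5a. It was in 8 of 56 of genes not passing and in 1 of 5 of genes that were lower. Counted by gene these were 5 of 20, 8 of 47 and 1 of 4. Among all tested genes called higher, 12.1% of promoters held CACGTG. A match is a description of these letters only. The windows below show the matches in capitals, the first 5 for TGATGNAA and the last 3 for CACGTG, each read along the gene's strand; they are shown because 5 synthetases hold the first motif and because Eif4e carries the second while being lower.
Gars: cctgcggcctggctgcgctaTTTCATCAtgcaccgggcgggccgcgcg
Tars: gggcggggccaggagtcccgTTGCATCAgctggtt
Iars: tgagcctggcactgtcagtaTTGCATCA
Yars: agcggagcgacgagctcagcTGATGCAA
Aars: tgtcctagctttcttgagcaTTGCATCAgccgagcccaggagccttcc
Eif4a1: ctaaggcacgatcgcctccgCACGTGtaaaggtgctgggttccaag
Eif5a: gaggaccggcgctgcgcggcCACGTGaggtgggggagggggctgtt
Eif4e: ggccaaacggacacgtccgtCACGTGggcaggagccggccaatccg

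Their places in GRCm38.p6 are as follows. The Gars window is chr6:55037951-55037998 on the plus strand, and its match begins 30 bases before the start. That of Tars is chr15:11399659-11399693 on the minus strand, with the match 15 bases before the start. Iars and Yars have the match just after the start, at base offsets of 7 and 3, in windows at chr13:49682117-49682144 and chr4:129189886-129189913, both plus. For Aars, which did not pass the test (8.59, 8.06 and 9.54 scaled RPKM against 8.68 and 8.13), the window is chr8:111033710-111033757, plus, and the match shown lies 112 bases before the start; a further match in the same promoter, not shown, begins at an offset of 9 after it. Of these 5 synthetases 4 were called higher, and the groups overlapped for Aars. The E-box windows are chr11:69672587-69672632 (Eif4a1, minus), chr11:69920783-69920828 (Eif5a, minus) and chr3:138527184-138527229 (Eif4e, plus), with matches 189, 178 and 64 bases before the start.

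Neighbouring steps of translation were read from lists chosen with the members. Of 15 elongation and termination genes tested, 5 were higher and 1 lower (33.3% and 6.67%, against 15.9% and 14.3% of all genes tested). Eef1a1, the broad form of the factor that brings tRNA to the ribosome, was higher (log2 fold change 3.87). It was at 1527 ± 73.5 scaled RPKM (SD, n = 3) against 105.5 ± 27.8 (n = 2). Eef2k, the kinase that inhibits elongation factor eEF2, was at 1.04 and the ribosome-recycling gene Abce1 at 1.03. The gene that was lower, Eef1a2, the muscle form of the same factor as Eef1a1 (-0.50), did not pass on library totals (-0.08). Of 6 genes for the scaffold of the synthetase complex and for editing, 2 were higher (33.3%, against 15.9% of all genes tested) and 0 lower. The 2 were the scaffold genes Eef1e1 (0.86) and Aimp2 (0.62). Of 16 genes of mitochondrial translation, 0 were higher and 1 was lower (0% and 6.25%, against 15.9% and 14.3% of all genes tested). The 1 was Qrsl1 (-0.62), a subunit of the enzyme that makes glutaminyl-tRNA in mitochondria. The median log2 fold change of that list was -0.17 with TMM factors and 0.13 on library totals, where Qrsl1 did not pass either (-0.24, adjusted p = 0.202).

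Of 20 genes for poly(A)-binding partners and mTORC1 signalling, 3 were higher (15.0%, near the 15.9% of all genes tested) and 2 lower (10.0%, against 14.3%). Pabpc1, a poly(A)-binding protein gene, was at 1.39 but scarce (means of 9.10 scaled RPKM in OSKM-CMs and 2.89 in controls). The more abundant Pabpc4 (111 and 77.7) was at 0.50 (adjusted p = 0.0281). The eIF4E kinase gene Mknk1 was at 0.55 and the other, Mknk2, at -0.54. On library totals Mknk2 did not pass (-0.13, adjusted p = 0.509). Of 25 genes of the integrated stress response, the program that follows eIF2 phosphorylation, 9 were higher and 2 lower. That was 36.0% and 8.0%, against 15.9% and 14.3% of all genes tested. Asparagine synthetase Asns (58, 50 and 60 reads against 11 and 0, log2 fold change 2.33), the mitochondrial folate enzyme Mthfd2 (1.90) and the amino acid transporter Slc7a5 (1.804) had the largest values on the log2(scaled RPKM + 1) scale; as a ratio of mean scaled RPKM, Slc7a5 (17.2-fold) was above Asns (10.3-fold) and Mthfd2 (7.99-fold). Atf4 itself was at 0.68 (adjusted p = 0.0052). Ddit3 (0.79, adjusted p = 0.122) did not pass, and Cebpb (-1.35) and Vldlr (-1.51) were lower. Atf3 had the most negative value of the list (-1.52) and did not pass (adjusted p = 0.0631). All OSKM libraries lay below both controls for Atf3, and its FDR in the authors' deposited table is 0.000724.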

How the data were processed

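The deposited table holds RPKM per gene for the 5 libraries and the authors' own log2 fold change, log2 CPM, likelihood ratio score, p-value and FDR per gene. The unit of the library columns was inferred from the values: they gave whole reads for 100.0% of 12446 genes to within 0.0001 reads. Per the submitters' processing notes CASAVA 1.8.2, Trimmomatic, STAR 2.5.3, HTSeq and mm9 were used; strand and shared reads are not given in the sources used here.

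RPKM was rescaled with TMM factors (trims of 30% and 5%) from the recovered reads, and log2(scaled RPKM + 1) was fitted in limma 3.58.1 (R 4.3.3; trend, robust, 3 residual degrees of freedom) for genes with a mean of at least 1 RPKM. The planned count model was not used because the table holds RPKM. A fold change on this scale understates that of low genes. SDs are over libraries, and intervals for a single library were not needed. Counts of 10865 genes were simulated at an assumed dispersion of 0.02, with 50 genes changed at each fold. Of these changes, 8% of 1.5-fold, 50% of 2-fold, 100% of 4-fold and 94% of 8-fold were called. A gene removed by the filter counts as not called. Far more genes were called in the real data (1740 higher and 1558 lower), which moves the adjusted p, so these shares do not give its power.

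Named genes were, per role, the 3 called genes of largest change and fixed paralogues; other members are given in brief. Members, lists and motifs were chosen with earlier results of these data known. The 13 alternatives changed the pseudocount, filter, scaling, model or libraries. With 1 control library left, it is assumed to vary like the OSKM libraries. Promoters came from RefSeq (GRCm38.p6).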

Additional observations from a re-analysis of the deposited data

How the results depend on the processing

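All 13 other settings were run. The number of members higher was 57 on library totals and 21 to 28 with 1 library left out; the number lower was 0 on library totals and 2 to 7 with 1 library left out, the lowest values coming without OSKM-CMs 1 (2), OSKM-CMs 3 (3) and Control-CMs 3 (3). The median log2 fold change of the members was 0.16 with a pseudocount of 5, 0.31 with a mean of at least 5 RPKM, 0.63 on library totals and 0.22 to 0.31 with 1 library left out. A pseudocount of 5 shrinks all differences by construction; the other causes were not tested. Eif3m and Iars2 changed sign and passed on library totals (0.39 and 0.38). With limma voom on the recovered reads, 33 members were higher and 7 lower, and 1896 and 1886 of all genes. Of 1168 single-gene values, 1068 kept their side of the threshold, 54 lost the call and 44 gained one. A value that passed in neither fit was counted as kept even where its sign changed. Eif4g1, at -0.25 with TMM factors and 0.16 on library totals, is an example. Of the 29 genes called higher, 19 kept the call in every alternative; of the 6 called lower 0 did, and 2 (Eif1 and Fars2) did so apart from library totals. No paired analysis was possible because number 3 alone occurs in both groups. Depth limits the scarce members: 3 reads are 1.08 to 1.11 CPM in OSKM-CMs and 0.852 and 0.777 in controls. Eif5a2 lay near that level in the controls (2 and 3 reads) and above it in OSKM-CMs (8 to 20 reads).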
